A study of Homo sapiens with 6 samples.

Results

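The nuclear genes of oxidative phosphorylation were followed in a human breast cancer line treated with a histone deacetylase inhibitor. Members were every gene of the count table whose symbol starts with NDUF, UQCR, ATP5 or SDH, or with COX followed by a digit from 4 to 8. Of 101 such symbols, 1 pseudogene and 2 antisense genes were left out, which leaves 98 of the 30051 genes of the table. They comprise 37 subunits of complex I, 4 of complex II, 9 of complex III, 15 of complex IV, 19 of complex V with its inhibitor, 12 assembly factors, 1 divergent transcript and 1 read-through gene. NDUFA4 and its paralog NDUFA4L2 carry a complex I name and are placed with complex IV, where the NDUFA4 protein is now assigned.

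The cells were MDA-MB-231, a triple-negative line of the claudin-low subtype, a subtype with weak epithelial junctions and mesenchymal features. They received 50 nM panobinostat, which inhibits most histone deacetylases, or the solvent DMSO (0 nM), both for 24 h. There are 3 libraries per treatment, panobinostat replicates 1, 2 and 4 and DMSO replicates 1, 2 and 3, and the series text calls the repeats independent. The libraries are bulk poly(A) RNA of 1 line at 1 dose and 1 time, so no value here is a protein, an assembled complex or a respiration rate.

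The respiratory chain passes electrons from NADH through complex I, or from succinate through complex II, to coenzyme Q, then through complex III and cytochrome c to complex IV, where oxygen is reduced. Complexes I, III and IV pump protons across the inner mitochondrial membrane, and complex V, the ATP synthase, lets them back and makes ATP. Complexes I, III, IV and V combine subunits made inside the mitochondrion with many made from nuclear genes, while complex II is nuclear throughout. Transcription of the nuclear genes is known to involve the factors NRF1, GABP (made of GABPA and a GABPB partner), YY1, SP1 and ESRRA and the coactivators of the PGC-1 family. Tumour lines such as this one make much of their ATP by glycolysis but keep the chain. The mitochondrially encoded subunits were not analysed here.

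Total counts were 15106148, 5389638 and 6622406 in panobinostat replicates 1, 2 and 4, and 11996519, 7113569 and 6514568 in DMSO replicates 1, 2 and 3. Panobinostat replicate 4 stood apart. It lay between the other panobinostat libraries and DMSO on a first principal component that held 87.5% of the variance, and its chi-square per gene against panobinostat replicates 1 and 2 was 20.9 and 12.8, against 1.23 to 1.74 for the other pairs within a treatment. Counts are therefore also given without it. The line's own markers were present: VIM, CD44, AXL, CAV1 and ZEB1 summed to 5084 to 5167 CPM (counts scaled to a library total of 1000000) under panobinostat and 5287 to 5376 CPM in DMSO, while CDH1 and CLDN3 stayed under 0.5 CPM in each library. Of the 5 summed markers 1 was called higher, 3 lower and 1 not called, with a median log2 fold change of −0.34, and none had an overlap between treatments. EPCAM (8.74 to 12.6 CPM under panobinostat and 16.7 to 19.8 CPM in DMSO) and CLDN7 (13.7 to 16.6 and 14.9 to 15.8 CPM) were low but present. EPCAM was called lower, CLDN7 was not called, and CLDN4 was called higher (3.16 to 4.78 CPM under panobinostat and 0.854 to 1.61 CPM in DMSO, 1.64 ± 0.29). Their part in the results below was not tested.

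Each tested gene was fitted with edgeR's quasi-likelihood test on the whole table and a call needed a p below 0.05 after Benjamini-Hochberg adjustment. Log2 fold changes are panobinostat over DMSO with their SE, and levels are CPM after TMM scaling, as mean ± SD with n = 3 per treatment. In bulk RNA, fewer cells of a type and less RNA per cell cannot be told apart, and CPM show shares of the RNA pool rather than amounts per cell.

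Promoters of the 4 members below are shown because their genes moved in opposite directions and their windows hold different motifs. Picked in this way, they do not stand for all called members. COX6A1, called higher, holds NRF1, ETS, YY1 and SP1 matches, and NDUFC1 and COX7C, called lower, hold SP1 matches only. Sequences are from RefSeq on GRCh38.p14, 5′ to 3′ on the gene's strand, and capitals mark matches to the motifs searched. UQCRFS1, the Rieske iron-sulfur protein of complex III, and NDUFS3, a core subunit of complex I, had lower RNA under panobinostat, and their whole windows of 300 bases are given. NDUFB10, an accessory subunit of complex I, and COX6B2, a complex IV subunit normally found in testis, had higher RNA, and the 250 bases before their starts are given. The windows are chr19:29213102-29213401 (minus strand), chr11:47578824-47579123 (plus), chr16:1959288-1959537 (plus) and chr19:55354720-55354969 (minus).
UQCRFS1: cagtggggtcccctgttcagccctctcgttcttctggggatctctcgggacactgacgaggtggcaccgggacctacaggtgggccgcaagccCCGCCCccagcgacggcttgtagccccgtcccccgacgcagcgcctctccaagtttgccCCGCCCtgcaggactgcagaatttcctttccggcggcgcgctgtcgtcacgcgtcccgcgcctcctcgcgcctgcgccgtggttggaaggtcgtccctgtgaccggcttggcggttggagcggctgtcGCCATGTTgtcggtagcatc
NDUFS3: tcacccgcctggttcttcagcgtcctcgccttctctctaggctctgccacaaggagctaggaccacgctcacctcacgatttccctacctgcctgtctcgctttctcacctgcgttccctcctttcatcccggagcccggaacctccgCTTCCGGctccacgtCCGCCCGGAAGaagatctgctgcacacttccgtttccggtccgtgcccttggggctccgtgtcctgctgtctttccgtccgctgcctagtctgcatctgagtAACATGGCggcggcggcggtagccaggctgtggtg
NDUFB10: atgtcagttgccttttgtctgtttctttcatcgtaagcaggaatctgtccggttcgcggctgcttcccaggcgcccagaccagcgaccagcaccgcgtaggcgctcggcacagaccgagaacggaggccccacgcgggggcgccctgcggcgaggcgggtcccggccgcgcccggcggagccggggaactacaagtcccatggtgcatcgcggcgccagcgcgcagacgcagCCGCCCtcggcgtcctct
COX6B2: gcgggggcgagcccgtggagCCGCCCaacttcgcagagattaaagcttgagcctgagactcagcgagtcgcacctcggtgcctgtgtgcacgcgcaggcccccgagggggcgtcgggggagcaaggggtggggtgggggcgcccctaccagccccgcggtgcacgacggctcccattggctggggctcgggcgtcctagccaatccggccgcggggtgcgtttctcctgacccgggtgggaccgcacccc
The UQCRFS1 window holds a YY1 match over its start codon and a pair of SP1 matches. That of NDUFS3 holds a YY1 match over its start codon, a pair of ETS matches and 1 SP1 match, and those of NDUFB10 and COX6B2 hold 1 SP1 match each.

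Most genes of oxidative phosphorylation kept a level close to that of DMSO. Of the 90 tested members, 13 were called higher, 16 lower and 61 not called, a share called of 32.2%, while over all 13341 tested genes the share was 58.9% (30.2% higher and 28.6% lower). The median absolute log2 fold change was 0.16 over the members and 0.42 over all tested genes, as the plot of the size of change shows. Of the 90, 87 differed by less than 1.5-fold and 38 less than 10%. COX6B2 was the 1 member called at 2-fold or more, a size that 15.5% of all tested genes reached, and it was again the 1 such member without panobinostat replicate 4, against 22.9% of all tested genes. COX6B2 passed the expression filter only through the panobinostat libraries, where it was high. The signed median was −0.03, against 0.00 over all tested genes.

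**Figure D1:**
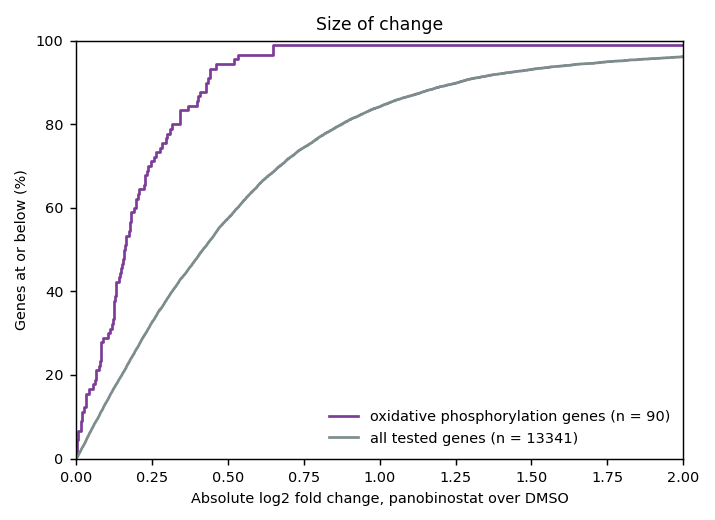
Cumulative share of genes (vertical axis, percent) at or below each absolute log2 fold change of panobinostat over DMSO (horizontal axis, shown up to 2) for the 90 tested oxidative phosphorylation genes and all 13341 tested genes. The curve of the oxidative phosphorylation genes lies above that of all genes, with medians of 0.16 and 0.42, and COX6B2 (4.51) lies beyond the right edge.

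The same shares were taken at a similar level. Among tested genes whose DMSO mean lay between 9.04 and 216 CPM, the 5th and 95th percentile of the members, 61.8% of 8771 were called, and 31.2% of the 80 members in that range. With panobinostat replicate 4 left out, 20 members were higher and 31 lower (56.7%), against 74.6% of 13746 tested genes (37.6% higher and 36.9% lower). All 29 calls made with 6 libraries were kept and 22 were added. Panobinostat and DMSO values did not overlap in 52 of the 90 members (57.8%), against 69.0% of all tested genes, and in 61 without panobinostat replicate 4, against 80.7%. The split of calls depended on scaling: with library size only it was 16 higher and 13 lower.

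**Figure D2:**
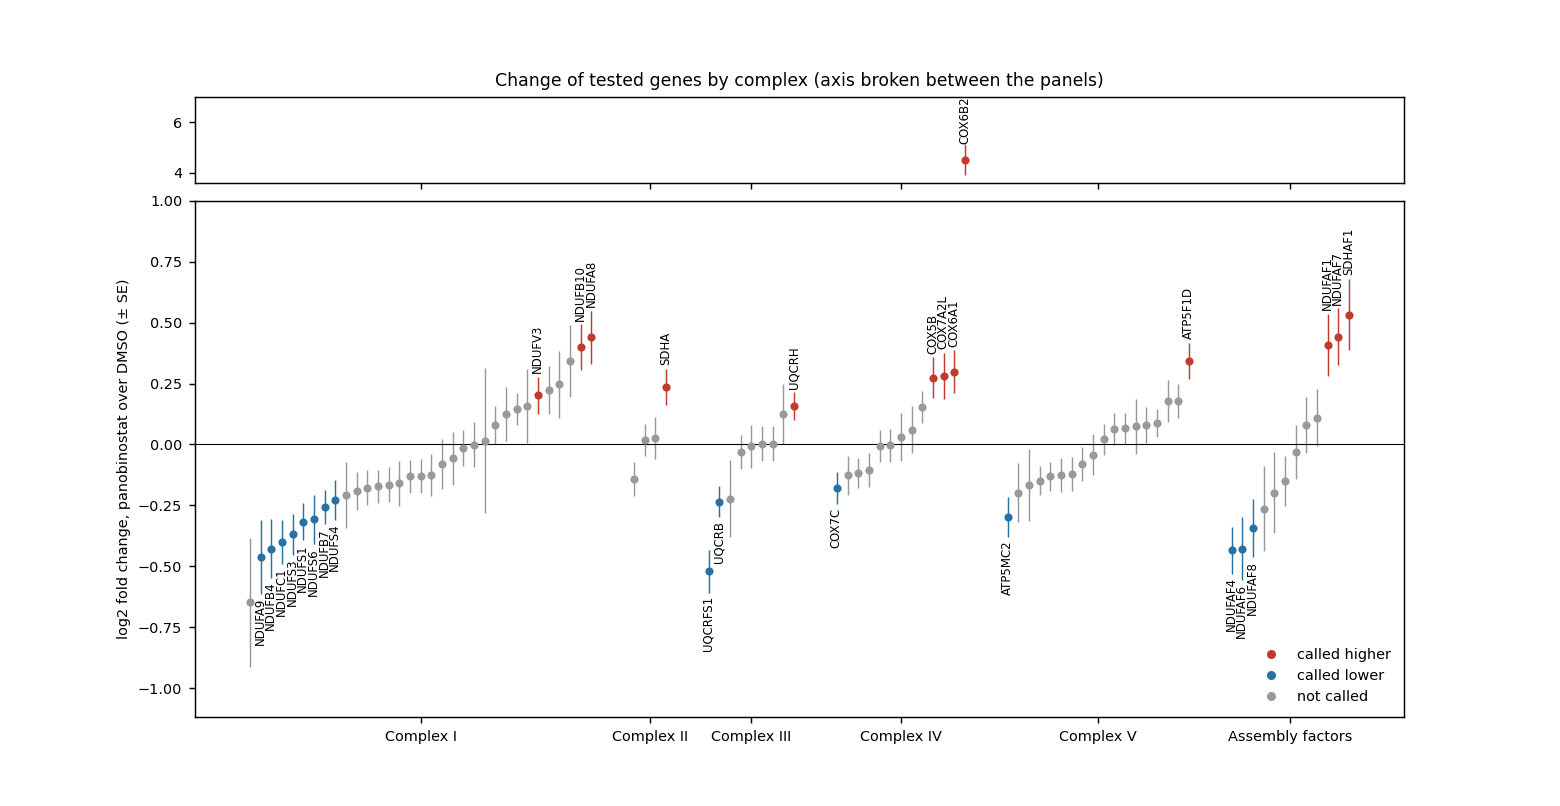
Log2 fold change of panobinostat over DMSO with its SE (vertical axis, broken between the panels) for 89 of the 90 tested members, sorted within complexes I to V and the assembly factors (horizontal axis). Red, blue and grey points are genes called higher, called lower and not called. Most of the lower calls are in complex I, the largest group, where they are 26.5% of the tested subunits, against 28.6% of all tested genes.

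Complex I is the NADH dehydrogenase. Of its 34 tested subunits 3 rose, 9 fell and 22 were not called (35.3% called), with a median log2 fold change of −0.13. The falls made up 26.5% of the subunits, against 28.6% of all tested genes, and the rises 8.82%, against 30.2%. The counts were 2 and 10 with DESeq2 size factors and 4 and 8 with library size only. Summed over the complex, expression was 1696, 1713 and 1755 CPM under panobinostat and 1847, 1846 and 1837 CPM in DMSO, so each panobinostat library lay below each DMSO library. This did not hold for all parts of the complex. The sums of the NDUFA genes (417 ± 13 CPM under panobinostat and 419 ± 12 CPM in DMSO) and of the NDUFB genes (525 ± 10 and 539 ± 5.9 CPM) overlapped. Those of the NDUFS and NDUFC genes lay below DMSO and that of the NDUFV genes above. Of the complex I subunits 6 rose and 17 fell without panobinostat replicate 4 (67.6% called), when 37.6% of all tested genes were higher and 36.9% lower.

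The NDUFS genes, which encode mostly iron-sulfur and core subunits of the arm that reaches into the matrix, held 5 of the 9 falls called in all 6 libraries. These were 62.5% of the 8 tested NDUFS genes, against 28.6% of all tested genes called lower. The NDUFS sum was 516, 489 and 565 CPM under panobinostat and 639, 642 and 646 CPM in DMSO. Panobinostat replicate 4 was the nearest to DMSO, and the treatments did not overlap.

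NDUFS1, the large core subunit that carries several iron-sulfur clusters, fell by 0.32 ± 0.08 on the log2 scale, to 118, 112 and 132 CPM under panobinostat, against 147, 148 and 155 CPM in DMSO (edgeR adjusted p = 0.00935). NDUFS3 fell by 0.37 ± 0.08, to 45.2, 43.0 and 48.3 CPM, against 62.1, 57.1 and 56.8 CPM in DMSO (edgeR adjusted p = 0.00732). The accessory subunits NDUFS6 (−0.31 ± 0.10) and NDUFS4 (−0.23 ± 0.08), which belong to the NADH-oxidising end of that arm, also fell. NDUFS5 (−0.17 ± 0.07) and NDUFS8 (−0.18 ± 0.07) were not called, and neither was NDUFS7, the core subunit with the last iron-sulfur cluster before coenzyme Q (20.5 ± 1.3 CPM under panobinostat and 18.9 ± 1.3 CPM in DMSO). NDUFS3 shares 19.7% of its exonic bases with PTPMT1 on the same strand, which averaged 3.93 CPM under panobinostat and 6.84 CPM in DMSO and was itself called lower. How reads in shared bases were counted is not known, and the part of this overlap in the difference of NDUFS3 was not tested.

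The 3 NDUFV genes, whose proteins lie at the NADH-oxidising end, had 1 rise and no fall, and no rise with DESeq2 size factors. Their sum was 210, 214 and 208 CPM under panobinostat and 189, 190 and 185 CPM in DMSO, with no overlap. NDUFV3, an accessory subunit, rose by 0.20 ± 0.07 (edgeR adjusted p = 0.0466), but was not called with DESeq2 size factors, with 83.3, 80.5 and 78.4 CPM under panobinostat and 65.8, 72.4 and 72.9 CPM in DMSO. NDUFV1, which binds NADH and the flavin, had 125, 131 and 127 CPM under panobinostat and 120, 115 and 110 CPM in DMSO and was not called (0.15 ± 0.07). NDUFV2, which carries an iron-sulfur cluster, was low at 2.10 ± 0.23 CPM under panobinostat and 1.96 ± 0.63 CPM in DMSO, with an overlap, and was not called (0.02 ± 0.30). NDUFV2 shares 28.4% of its exonic bases with another annotated gene on the same strand. The part of that overlap in its low counts was not tested. No test was made of the difference between the NDUFS and NDUFV groups.

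Among the other accessory subunits of complex I, a pair rose and 4 fell. NDUFA8 had 64.9, 65.8 and 52.5 CPM under panobinostat and 48.2, 43.7 and 43.0 CPM in DMSO (0.44 ± 0.11, edgeR adjusted p = 0.00961). NDUFB10 had 76.1, 80.7 and 70.6 CPM under panobinostat and 51.8, 61.8 and 59.3 CPM in DMSO (0.40 ± 0.09, edgeR adjusted p = 0.00811). In neither gene did the treatments overlap. The falls were in NDUFA9, which holds the arms together at the coenzyme Q site (−0.46 ± 0.15), NDUFB4 (−0.43 ± 0.12), NDUFC1 (−0.40 ± 0.09) and NDUFB7 (−0.26 ± 0.07). NDUFC1 was at 25.5, 24.3 and 23.6 CPM under panobinostat and 32.0, 32.3 and 32.9 CPM in DMSO, and NDUFB4 at 41.8, 47.6 and 56.9 CPM under panobinostat and 60.6, 68.5 and 66.9 CPM in DMSO. NDUFA13 was at 1.41 ± 0.36 CPM under panobinostat and 2.17 ± 0.18 CPM in DMSO and was not called (−0.65 ± 0.26). It shares 21.0% of its exonic bases with other annotated genes on the same strand, and the part of that overlap in its low counts was not tested.

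The calls of NDUFS1, NDUFS3, NDUFA8, NDUFB10 and NDUFC1 held under all alternatives run. Those of NDUFV3, NDUFS4 and NDUFS6 were lost without any 1 library other than panobinostat replicate 4, that of NDUFA9 without panobinostat replicate 1, DMSO replicate 1 or DMSO replicate 3, that of NDUFB7 without the same 3, and that of NDUFB4 without panobinostat replicate 1, panobinostat replicate 2, DMSO replicate 2 or DMSO replicate 3. The edgeR adjusted p of these losses was 0.0502 to 0.202. By edgeR, DESeq2 or limma it was 6.27e-13 to 0.353 across the alternatives of these 6 genes. NDUFA9, NDUFS4 and NDUFV3 were also not called with the DESeq2 Wald test or with no filter, and NDUFS4 was not called with library size only.

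Complex II, the succinate dehydrogenase shared with the citric acid cycle, had 1 rise among 4 genes and no fall (25% called, median 0.02). SDHA, the flavin-bearing catalytic subunit, had 302, 283 and 251 CPM under panobinostat and 235, 238 and 237 CPM in DMSO (0.24 ± 0.08, edgeR adjusted p = 0.0267). Its panobinostat libraries all lay above DMSO, with replicate 4 the lowest. SDHA has near-identical pseudogene copies, so its value is uncertain: the copy SDHAP1 was counted at 21.2, 21.9 and 22.4 CPM under panobinostat and 19.6, 16.2 and 20.2 CPM in DMSO. The iron-sulfur subunit SDHB (63.3 ± 5.2 and 62.0 ± 2.4 CPM under panobinostat and in DMSO), the membrane anchor SDHD (87.7 ± 2.1 and 86.5 ± 2.7 CPM) and the other anchor SDHC (110 ± 4.0 and 122 ± 6.8 CPM) were not called. SDHC was lower without panobinostat replicate 4, when 1 gene rose and 1 fell. The SDHA call was lost without any 1 library other than panobinostat replicate 4 (adjusted p by edgeR 0.0817 to 0.112, and by edgeR, DESeq2 or limma 1.09e-18 to 0.123 across the alternatives). SDHA was also not called with no filter or with the DESeq2 Wald test.

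Complex III, the cytochrome bc1 complex, had 1 rise and 2 falls among 9 genes (33.3% called), and a median of −0.01, or 0.02 with library size only. UQCRFS1 carries the mobile iron-sulfur cluster and had 88.5, 82.2 and 98.6 CPM under panobinostat and 136, 129 and 121 CPM in DMSO. All 3 panobinostat libraries were lower, and UQCRFS1 fell by 0.52 ± 0.09 (edgeR adjusted p = 0.00258), a call that held under all alternatives run. UQCRB, a small subunit near the coenzyme Q site, fell by 0.23 ± 0.06, to 145, 146 and 156 CPM under panobinostat, against 173, 181 and 171 CPM in DMSO. UQCRH, the hinge protein that contacts cytochrome c1, rose by 0.16 ± 0.06, to 185, 182 and 181 CPM under panobinostat, against 166, 166 and 159 CPM in DMSO. UQCRH was not called with DESeq2 size factors, with no filter or with the DESeq2 Wald test. Its near-identical retrocopy UQCRHL (15.3 ± 0.75 CPM under panobinostat and 14 ± 1.4 CPM in DMSO) was not called, and reads could be split between them. The large core proteins UQCRC1 (156 ± 5.5 and 160 ± 9.8 CPM) and UQCRC2 (105 ± 2.9 and 104 ± 6.3 CPM) were not called.

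The summed expression of complex III was 829, 822 and 830 CPM under panobinostat and 896, 866 and 871 CPM in DMSO, with no overlap. Abundant genes weigh most in such a sum. Only UQCRFS1 and UQCRB were called lower in it, and the median log2 fold change of the complex was −0.01. The call of UQCRB was lost without panobinostat replicate 1, panobinostat replicate 2 or DMSO replicate 2, and that of UQCRH without any 1 library other than panobinostat replicate 4. The edgeR adjusted p of these losses was 0.0545 to 0.222. By edgeR, DESeq2 or limma it was 4.25e-10 to 0.492 across the alternatives of both genes. In complex III 1 gene rose and 3 fell without panobinostat replicate 4.

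**Figure D3:**
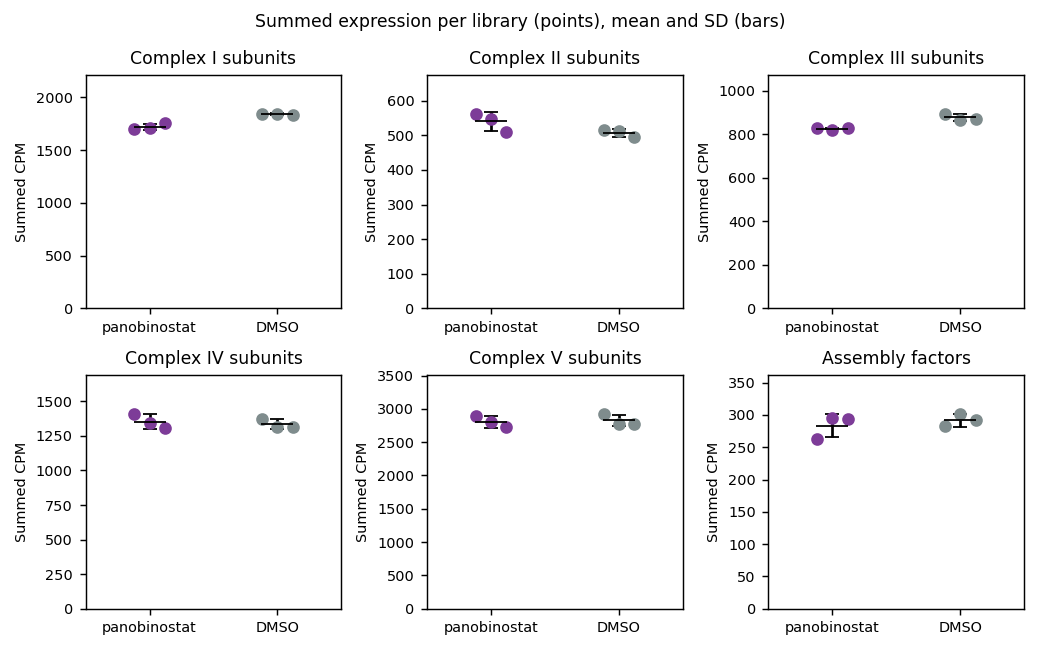
Summed CPM of the genes of each complex and of the assembly factors (vertical axes, from 0) in the 3 panobinostat and 3 DMSO libraries, with the mean and SD as bars. Complexes I and III lie lower in each panobinostat library than in any DMSO library, at 1696 to 1755 and 822 to 830 CPM, while the other 4 sums overlap. Abundant genes weigh most in a sum, and the median log2 fold changes of complexes I and III were −0.13 and −0.01.

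Complex IV, the cytochrome c oxidase, had 4 genes higher, 1 lower and 8 not called of 13 tested (38.5% called, median 0.03). The share higher was 30.8%, close to the 30.2% of all tested genes, and the share lower was 7.69%, against 28.6%. COX6B2 stood far from the rest. It had 6.05, 4.78 and 3.31 CPM under panobinostat and 0.0847, 0 and 0.621 CPM in DMSO, so that the lowest panobinostat library lay well above the highest DMSO library. The fitted log2 fold change was 4.51 ± 0.61 (edgeR adjusted p = 0.00128), and the call held under all alternatives run. With 1, 0 and 4 counts in the DMSO libraries, COX6B2 passed the expression filter only through the panobinostat libraries. Over the libraries of each treatment 140 counts faced 5, a ratio per total count of 26.5 with a 95% interval of 11.1 to 82.8 that covers counting error only.

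COX6B2 and COX6B1 encode alternative forms of a small subunit on the intermembrane side. COX6B1, the form of most tissues, had 109, 88.8 and 89.1 CPM under panobinostat and 99.7, 91.2 and 91.1 CPM in DMSO and was not called (0.03 ± 0.10). Per kilobase of merged exons the panobinostat level was 1.24 CPM for COX6B2 and 102 CPM for COX6B1, and per kilobase of the median transcript 7.61 and 202 CPM, so COX6B1 remained the higher by either length. Another annotated gene on the same strand covers 30.9% of the exonic bases of COX6B2. The testis markers DDX4 and SYCP3 summed to 0.46 to 0.90 CPM under panobinostat and 0.17 to 0.85 CPM in DMSO, and DDX4 was at 0 in panobinostat replicate 2 and all 3 DMSO libraries.

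The other rises were smaller. COX6A1 rose by 0.30 ± 0.09, to 64.9, 70.6 and 64.4 CPM under panobinostat, against 50.3, 59.1 and 53.2 CPM in DMSO. COX7A2L, known for joining complex III to complex IV in supercomplexes, rose by 0.28 ± 0.09, to 127, 125 and 102 CPM under panobinostat, against 99.9, 97.2 and 93.9 CPM in DMSO. COX5B, a zinc-binding subunit on the matrix side, rose by 0.27 ± 0.08, to 90.2, 101 and 87.4 CPM under panobinostat, against 80.6, 76.6 and 72.1 CPM in DMSO. None of these genes had an overlap between treatments. COX7C fell by 0.18 ± 0.07, to 183, 167 and 187 CPM under panobinostat, against 209, 197 and 204 CPM in DMSO, and was not called with library size only.

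Of the isoform pairs, COX7A2 (93.5 ± 4.8 CPM under panobinostat and 101 ± 2.6 CPM in DMSO) was not called, and its muscle form COX7A1 had 6 counts under panobinostat and 5 in DMSO, too few to test. NDUFA4 (68.2 ± 0.4 and 68.3 ± 1.5 CPM) was not called, and NDUFA4L2, a form known to be induced by hypoxia, had 1 count in each treatment. COX4I1 (210 ± 5.4 and 228 ± 11 CPM), COX7B (109 ± 4.5 and 110 ± 2.9 CPM) and COX8A (65.8 ± 5.3 and 72.1 ± 0.3 CPM) were not called either, and their tissue-specific partners were not analysed here. The muscle markers MYH7, CKM, ACTA1 and MB summed to 0.92 to 1.35 CPM under panobinostat and 0.42 to 0.57 CPM in DMSO. Complex IV had 5 rises and 2 falls without panobinostat replicate 4. The calls of COX7A2L and COX7C were lost without any 1 library other than panobinostat replicate 4, that of COX5B without panobinostat replicate 2, DMSO replicate 2 or DMSO replicate 3, and that of COX6A1 without panobinostat replicate 2, DMSO replicate 1 or DMSO replicate 3. The edgeR adjusted p of these losses was 0.0754 to 0.159. By edgeR, DESeq2 or limma it was 2.97e-11 to 0.159 across the alternatives of these 4 genes. None of the 4 was called by the DESeq2 Wald test. COX5B, COX6A1 and COX7A2L were also not called with no filter.

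Complex V had the lowest share of calls among the complexes, 1 rise and 1 fall among 18 tested genes (11.1%), and a median of −0.01, or 0.02 with library size only. ATP5F1D, the delta subunit of the rotating central stalk, rose by 0.34 ± 0.07, to 72.0, 73.5 and 71.9 CPM under panobinostat, against 53.9, 58.2 and 59.7 CPM in DMSO (edgeR adjusted p = 0.00597). The 3 panobinostat values lay close together, replicate 4 included, and the call held under all alternatives run. ATP5MC2 fell by 0.30 ± 0.08, to 85.6, 84.2 and 81.9 CPM under panobinostat, against 112, 93.2 and 104 CPM in DMSO (edgeR adjusted p = 0.0159). It is 1 of 3 genes known to encode the same mature c-ring protein. The other 2, ATP5MC1 (80.7 ± 2.8 CPM under panobinostat and 85.3 ± 3.1 CPM in DMSO) and ATP5MC3 (158 ± 10 and 140 ± 2.6 CPM), were not called. ATP5MC3 was at 166, 161 and 146 CPM under panobinostat and 139, 142 and 137 CPM in DMSO, without an overlap.

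The beta subunit ATP5F1B, which carries the catalytic sites, and its partner the alpha subunit ATP5F1A were the most abundant members by CPM, and neither was called. ATP5F1B was at 802, 746 and 697 CPM under panobinostat and 746, 701 and 699 CPM in DMSO, and ATP5F1A at 536, 519 and 522 CPM under panobinostat and 612, 554 and 562 CPM in DMSO. The inhibitor ATP5IF1, which blocks ATP hydrolysis when the membrane potential falls, was at 74.5 ± 3.1 CPM under panobinostat and 70.6 ± 2.8 CPM in DMSO. Complex V had 4 rises and 4 falls without panobinostat replicate 4, ATP5F1B being higher (0.11, edgeR adjusted p = 0.0128) and ATP5F1A lower (−0.14, edgeR adjusted p = 0.00210). The call of ATP5MC2 was lost without DMSO replicate 1 (adjusted p by edgeR 0.0694, and by edgeR, DESeq2 or limma 9.07e-08 to 0.0694 across the alternatives).

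Of the assembly factors that carry these names 3 were higher, 3 lower (2 with library size only) and 6 not called out of 12 (50.0% called, against 58.9% of all tested genes). Their median was −0.09, with 0.02 without panobinostat replicate 1. SDHAF1, which helps to insert iron-sulfur clusters into SDHB, had 9.86, 11.8 and 9.48 CPM under panobinostat and 6.95, 7.26 and 7.14 CPM in DMSO (0.53 ± 0.15, edgeR adjusted p = 0.0150). NDUFAF7, a methyltransferase needed early in the assembly of complex I, rose by 0.44 ± 0.12, to 29.3, 31.1 and 28.3 CPM under panobinostat, against 22.7, 23.6 and 18.6 CPM in DMSO. NDUFAF1, part of the assembly complex of the membrane arm, rose by 0.41 ± 0.13, to 24.8, 26.8 and 20.6 CPM under panobinostat, against 17.0, 18.4 and 19.2 CPM in DMSO. NDUFAF4 fell by 0.43 ± 0.10, to 22.6, 25.9 and 24.5 CPM under panobinostat, against 33.4, 33.0 and 31.7 CPM in DMSO, and its call held under all alternatives run. NDUFAF6 (−0.43 ± 0.13) and NDUFAF8 (−0.34 ± 0.12) also fell, all of them factors of complex I. None of the 6 genes had an overlap between treatments.

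Among assembly factors 3 rose and 4 fell without panobinostat replicate 4. The call of NDUFAF1 was lost without any 1 library other than panobinostat replicate 4, that of NDUFAF6 without panobinostat replicate 1 or any DMSO library, that of NDUFAF7 without DMSO replicate 3, that of NDUFAF8 without panobinostat replicate 1, panobinostat replicate 2, DMSO replicate 2 or DMSO replicate 3, and that of SDHAF1 without panobinostat replicate 2, DMSO replicate 1 or DMSO replicate 3. The edgeR adjusted p of these losses was 0.050 to 0.137. By edgeR, DESeq2 or limma it was 5.75e-07 to 0.137 across the alternatives of these 5 genes. NDUFAF1 and SDHAF1 were also not called with no filter or the DESeq2 Wald test, and NDUFAF8 with library size only or the DESeq2 Wald test.

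**Figure D4:**
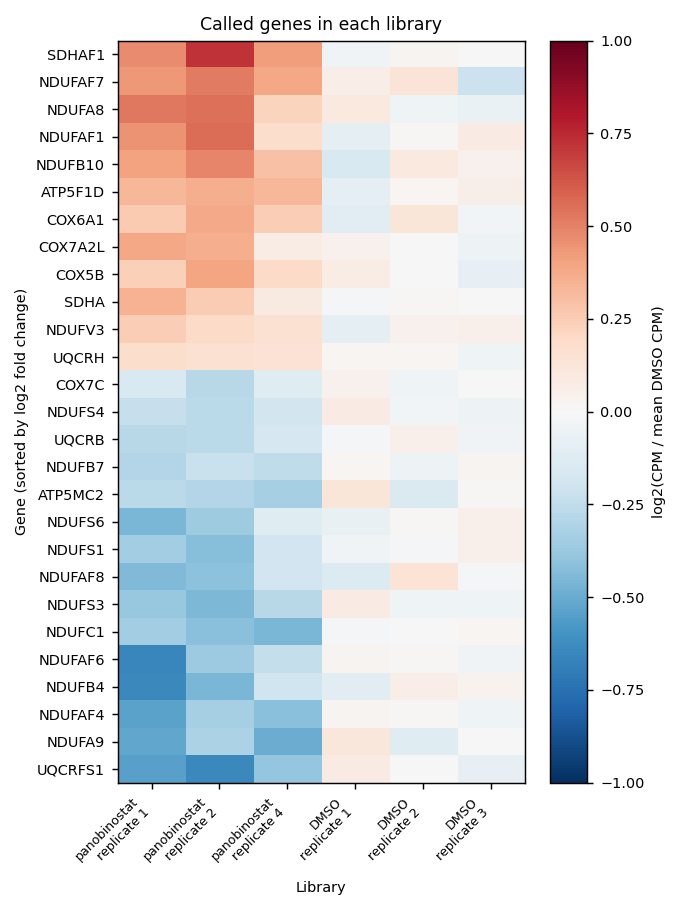
Log2 of CPM over the DMSO mean (colour scale, −1 to 1) of 27 of the 29 called members (rows, sorted by log2 fold change) in the panobinostat and DMSO libraries (columns), without COX6B2, which had 0 counts in 1 DMSO library. Panobinostat replicate 4 is paler than replicates 1 and 2 in most rows, with medians over the 13 higher genes of 0.38, 0.40 and 0.22 in replicates 1, 2 and 4.

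Replicate 4 differed from the other panobinostat libraries in these genes as it did over the whole table. It lay between DMSO and panobinostat replicates 1 and 2 in 13 of the 13 higher members and in 11 of the 16 lower ones. Over the 16 lower members the median log2 ratio of CPM to the mean of DMSO was −0.41 in panobinostat replicate 1, −0.36 in replicate 2 and −0.24 in replicate 4. The 13 higher, 16 lower and 61 uncalled members had a median level of 57.3, 67.7 and 67.8 CPM in DMSO and a median genomic span of 13146, 16249 and 12649 bases. Across the 90 genes, which are not independent replicates and share their 6 libraries, the Spearman correlation of the log2 fold change with span was −0.13 and with DMSO level −0.04.

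Genes around the chain, counted in the same fit with a share of 58.9% called over all tested genes, moved in both directions. Among 12 further assembly factors of complex I, 1 rose and 5 fell, with ACAD9 (−0.37 ± 0.08) and TMEM126B (−0.32 ± 0.08) among the falls. The rise was AIFM1 (0.35 ± 0.09), whose call was lost without DMSO replicate 3 (adjusted p by edgeR 0.0520). TIMMDC1 (0.09 ± 0.08), TMEM186 (0.16 ± 0.13) and COA1 (0.08 ± 0.07) were not called. Of 9 assembly factors of complex III 2 rose and 4 fell, and the cytochrome b factors UQCC2 (−0.67 ± 0.11) and UQCC1 (−0.39 ± 0.10) were lower. Of 26 for complex IV 1 rose and 9 fell, and COA7 had 41.3, 39.3 and 68.9 CPM under panobinostat and 94.4, 92.4 and 88.1 CPM in DMSO (−0.89 ± 0.19, edgeR adjusted p = 0.00628). TACO1, a translational activator of COX1 (−0.76 ± 0.14), and HIGD2A (−0.57 ± 0.11) fell, and CMC2 rose (0.39 ± 0.09). Of 5 for complex V 1 rose, TMEM70, which helps to build the c ring (0.59 ± 0.12), and 1 fell, DMAC2L (−0.50 ± 0.13). Without panobinostat replicate 4 the calls, higher and lower, were 1 and 6, 2 and 4, 4 and 13, and 1 and 2 in these 4 lists.

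Of the 3 cytochromes c tested, CYC1, the cytochrome c1 of complex III, fell by 0.35 ± 0.08, to 175, 172 and 205 CPM under panobinostat, against 243, 232 and 229 CPM in DMSO, and the other 2 were not called. The list of coenzyme Q synthesis and related genes had 1 rise, COQ10A (0.84 ± 0.17), and 4 falls among 13 genes, COQ2 (−0.40 ± 0.09) being 1 of them. COQ7 was called lower too (−1.34 without panobinostat replicate 4). That call was lost without any 1 library other than panobinostat replicate 4 (adjusted p by edgeR 0.0789 to 0.133). The citric acid cycle had 4 rises and 3 falls among 14, or 6 and 2 with library size only, and the subunits of its NAD-linked isocitrate dehydrogenase went apart. IDH3A, the catalytic subunit, had 87.6, 83.5 and 65.9 CPM under panobinostat and 49.1, 43.7 and 46.5 CPM in DMSO (0.77 ± 0.12, edgeR adjusted p = 0.00189). IDH3G had 28.9, 28.5 and 37.3 CPM under panobinostat and 50.5, 45.1 and 49.7 CPM in DMSO (−0.62 ± 0.12, edgeR adjusted p = 0.00438). IDH2, the mitochondrial NADP-linked enzyme, rose by 0.66 ± 0.11. Without panobinostat replicate 4 there were 1 rise and 1 fall among the cytochromes c, 3 and 6 in the coenzyme Q list and 8 and 4 in the citric acid cycle.

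Mitochondrial DNA transcription and replication had 2 rises and 4 falls among 12 genes, or 3 and 3 with library size only, with POLG2, the accessory subunit of the mitochondrial DNA polymerase, higher (0.51 ± 0.10) and TWNK, the replicative helicase, lower (−0.44 ± 0.11). Of 11 tested genes of the ADP/ATP carriers, the phosphate carrier and the MICOS complex that shapes the cristae, 2 rose and 4 fell. IMMT, the MICOS scaffold also called mitofilin, had 154, 152 and 198 CPM under panobinostat and 264, 256 and 250 CPM in DMSO (−0.61 ± 0.11, edgeR adjusted p = 0.00283), and APOOL of the same complex fell by 0.57 ± 0.11. CHCHD6, also of MICOS, was called higher (0.44 without panobinostat replicate 4). Its call was lost without any 1 library other than panobinostat replicate 4 (adjusted p by edgeR 0.0883 to 0.135), with no filter and with the DESeq2 Wald test. The carriers differed: SLC25A4 rose by 0.28 ± 0.07, to 78.0, 80.7 and 76.8 CPM under panobinostat, against 63.0, 68.5 and 62.2 CPM in DMSO, and SLC25A5 fell by 0.23 ± 0.07, to 509, 476 and 551 CPM under panobinostat, against 623, 592 and 586 CPM in DMSO. SLC25A4 lost its call without DMSO replicate 1 or DMSO replicate 3 (adjusted p by edgeR 0.0621 to 0.0723, and by edgeR, DESeq2 or limma 2.08e-05 to 0.109 across the alternatives). SLC25A5 lost its call without any 1 library other than DMSO replicate 3 and panobinostat replicate 4 (adjusted p by edgeR 0.0537 to 0.0767, and by edgeR, DESeq2 or limma 1.09e-27 to 0.0767 across the alternatives). SLC25A4 was also not called with no filter. Without panobinostat replicate 4 there were 4 rises and 5 falls in the first of these lists and 3 and 5 in the second.

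Of 11 listed regulators of the nuclear genes 2 rose, 7 fell and 2 were not called, so that 81.8% were called, against 58.9% of all tested genes, and 90.9% against 74.6% without panobinostat replicate 4. The list was drawn up with earlier results known. In it the median absolute log2 fold change was 0.67, against 0.16 over the members and 0.42 over all tested genes. PPARGC1A, which encodes the coactivator PGC-1alpha, had 31.6, 27.0 and 17.8 CPM under panobinostat and 3.05, 2.70 and 1.71 CPM in DMSO (3.31 ± 0.28, edgeR adjusted p = 0.000573). Each panobinostat library lay above each DMSO library, replicate 4 the lowest of the 3. ESRRA, the nuclear receptor that PGC-1alpha coactivates, rose by 0.47 ± 0.11, to 63.3, 64.2 and 51.8 CPM under panobinostat, against 40.3, 42.0 and 47.5 CPM in DMSO.

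NRF1, the GABP subunits, YY1 and SP1 fell. NRF1 had 17.6, 19.5 and 19.0 CPM under panobinostat and 29, 29.2 and 27.9 CPM in DMSO (−0.63 ± 0.10, edgeR adjusted p = 0.00202). GABPA fell by 0.69 ± 0.20, to 28.1, 30.3 and 49.4 CPM under panobinostat, against 58.3, 58.5 and 55.7 CPM in DMSO. Its partners GABPB1 (−0.90 ± 0.16) and GABPB2 (−1.05 ± 0.21) fell as well. YY1 fell by 0.54 ± 0.11, to 173, 185 and 235 CPM under panobinostat, against 287, 292 and 282 CPM in DMSO, and SP1 by 0.67 ± 0.13. PPRC1, a coactivator related to PGC-1alpha, had 31.9, 33.5 and 67.9 CPM under panobinostat and 101, 94.9 and 92.3 CPM in DMSO (−1.13 ± 0.26, edgeR adjusted p = 0.00762).

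PPARGC1B (0.31 ± 0.15) and CREB1 (0.05 ± 0.07) were not called. Without panobinostat replicate 4, 3 of the 11 regulators rose and 7 fell, with PPARGC1A at 3.51, PPRC1 at −1.58 and GABPA at −1.01. GABPA lost its call without panobinostat replicate 1, panobinostat replicate 2, DMSO replicate 1 or DMSO replicate 2 (adjusted p by edgeR 0.0544 to 0.0586, and by edgeR, DESeq2 or limma 1.02e-36 to 0.0586 across the alternatives). With no filter PPRC1 lost its call (adjusted p by edgeR 0.0980, and by edgeR, DESeq2 or limma 2.69e-111 to 0.0980 across the alternatives). Exons of GABPA overlap 20.2% of those of ATP5PF, a peripheral stalk subunit of complex V on the opposite strand, and whether reads were counted by strand is not known from the labels or files.

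**Figure D5:**
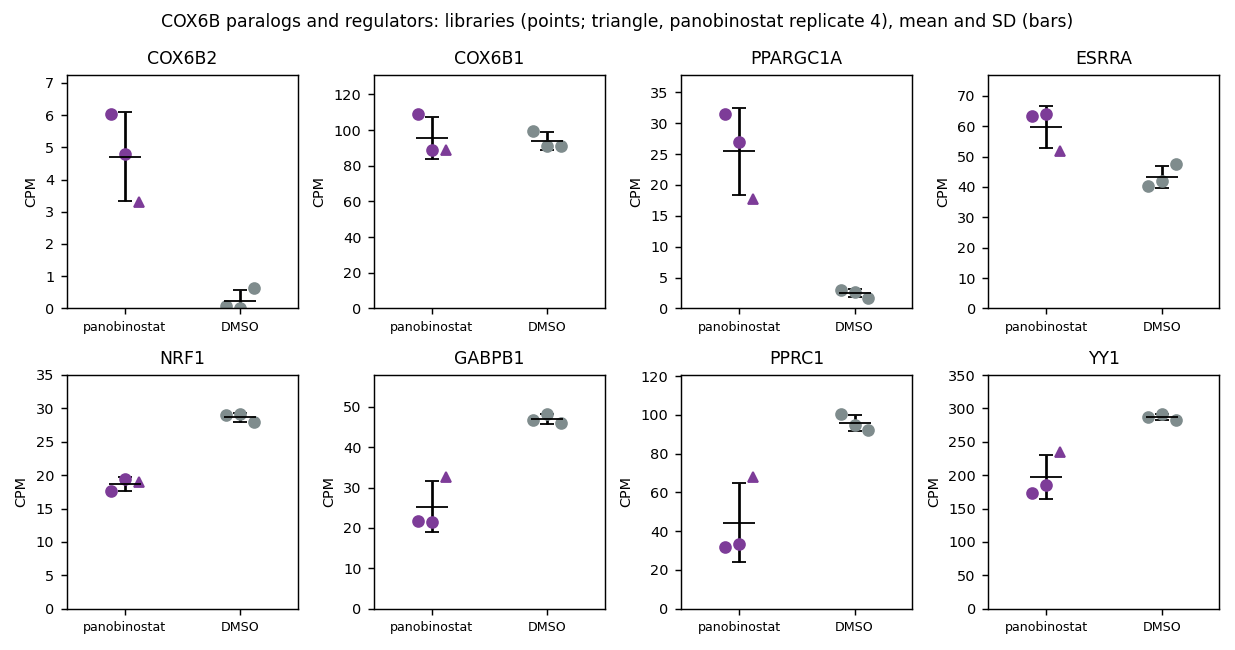
CPM (vertical axes, from 0) of the COX6B paralogs and of 6 regulators in the 3 panobinostat and 3 DMSO libraries, with mean and SD as bars and triangles for panobinostat replicate 4. COX6B2, PPARGC1A and ESRRA lie higher under panobinostat, NRF1, GABPB1, PPRC1 and YY1 lower, and COX6B1 overlaps.

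Promoter windows from 250 bases before to 50 after the first start listed by RefSeq were found for 81 of the 98 members and searched on both strands for 6 motifs. These were GCATGCGC for NRF1, CCGGAAG for the ETS family of GABPA, AANATGGC for YY1, GGGCGG for SP1, TGACGTCA for the cyclic AMP response element and TATAAA for the TATA box, none of them part of another. The NRF1 letters stood in 21.0% of member windows, 5.75% of the windows of 10066 tested genes and 3.27% of all 27305. For YY1 the shares were 29.6%, 10.4% and 6.82%, for ETS 28.4%, 19.8% and 10.7%, and for SP1 60.5%, 71.0% and 44.6%. The response element was in 6.17% of member windows and 3.29% of those of tested genes, and the TATA box in 7.41% and 5.34%. With the bases before the start alone the YY1 share of the members was 7.41%, so most of its matches lie across or after the start, as in UQCRFS1 and NDUFS3 above.

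By call, the YY1 letters were in 1 of 12 windows of higher members, 6 of 13 of lower members and 13 of 51 of uncalled ones. For NRF1 the numbers were 3, 4 and 8, for ETS 3, 4 and 16, and for SP1 9, 8 and 29. The lower members with a YY1 match were UQCRFS1, NDUFS1, NDUFS3, NDUFS4, NDUFS6 and NDUFA9, and the higher one was COX6A1. All of these YY1 matches lay across or after the start. In the bases before the start, YY1 letters were in 0 of 12 windows of higher members, 0 of 13 of lower members and 5 of 51 of uncalled ones. These matches are descriptions of the letters and not of binding.

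Of the 98 members 8 were too low to test, at 26 counts or fewer over the 6 libraries. NDUFA7 had 16 counts under panobinostat and 10 in DMSO, ATP5MGL 6 and 11, COX7A1 6 and 5, NDUFA3 1 and 3, and NDUFA4L2 1 and 1. NDUFA6 had none in any library, and the divergent transcript NDUFA6-DT and the read-through gene ATP5MF-PTCD1 had 3 and 1 and 0 and 1. NDUFA3, NDUFA6 and NDUFA7 encode complex I subunits. NDUFA7 shares 32.3% of its exonic bases with another gene on the same strand, and the part of that overlap in its low counts was not tested.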

How the data were processed

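Raw read counts per gene were deposited by the authors in a featureCounts table, without normalisation. The submitters' processing notes name GRCh38.p14 and FastQC. No aligner, annotation or strandedness of the counting is given in the labels used here. Per the labels' protocols, the kit was a stranded mRNA kit. Symbols and counts sit in separate identifier columns of the table and were joined by identifier. The same table's comparison columns were not used beyond their symbols.

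Counts were tested with edgeR 4.0.16 in R 4.3.3 (filterByExpr, TMM, robust quasi-likelihood fit, treatment only), and p-values were adjusted over all 13341 tested genes. Each SE is the absolute log2 fold change over the root of F. Biological variation between libraries (edgeR's coefficient) came to 0.112, or 0.028 when panobinostat replicate 4 was left out. An exact test of 3 against 3 libraries cannot go below p = 0.1 and was not used. Alternatives were DESeq2 1.42.0, limma 3.58.1 (voom with library quality weights), other scalings, no filter, a replicate block and leaving out each library.

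The members, the 11 companion lists, the motifs and the markers were chosen with earlier results of these data known. Within each complex the text names up to 4 called members in each direction, at 1 CPM or more, the members of isoform families, core subunits, regulators and up to 3 genes of each companion list and direction. NDUFS3, NDUFS4, NDUFS5, NDUFS6, NDUFS8, NDUFB7, NDUFA13 and SLC25A5 were chosen after their values were seen. NDUFV2, ACAD9, TMEM126B, TIMMDC1, TMEM186 and COA1 are also named outside the fixed choice, with their values known. Exon overlaps are from GENCODE 29 and promoters from RefSeq. The values of 1 member are not reported here, and the counts, sums and medians include it. Many subunit genes have processed pseudogenes, between which reads can be split.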

Additional observations from a re-analysis of the deposited data

How the results depend on the processing

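Of the 29 called members, 10 were called under all alternatives and 19 lost the call without at least 1 library. The 13 higher calls became 5 with no filter, 5 with the DESeq2 Wald test, 21 in the fit with a replicate block, 21 with voom quality weights, and 4 to 20 with 1 library left out. The 16 lower calls became 32 with the block, 30 with voom quality weights and 7 to 31 with 1 library left out; both upper ends were reached without panobinostat replicate 4, whose quality weight was 0.118. In the block fit panobinostat replicate 4 and DMSO replicate 3 each stood alone in a block. The treatment effect of that fit thus rests on replicates 1 and 2 only, and is not a check separate from leaving out panobinostat replicate 4. The replicate numbers 1 and 2 are shared between treatments, and same-numbered libraries deviated together with correlations of 0.051 and 0.008. These deviations are from means that include panobinostat replicate 4, so they cannot settle whether the numbers are pairs. The numbers were not taken as pairs. The median log2 fold change of complex I, −0.13, was −0.19 with no filter, −0.17 with the block and −0.18 to −0.12 with 1 library left out. That of complex III, −0.0072, was 0.023 with library size only, 0.023 with voom quality weights, −0.063 with no filter and −0.054 to 0.0050 with 1 library left out. That of complex V, −0.011, was −0.066 with no filter, −0.046 with the block and −0.074 to 0.0051 with 1 library left out. With 1 library left out the median was −0.024 to 0.037 for complex II, −0.014 to 0.100 for complex IV and −0.16 to 0.023 for the assembly factors, and with no filter −0.033, −0.026 and −0.14. The 8 named genes that changed sign passed the threshold in none of the settings run. With no filter the log2 fold change was −0.026 for COX6B1, −0.029 for SDHB, −0.036 for SDHD, −0.053 for UQCRC2 and −0.0043 for CREB1. With library size only it was 0.024 for COX7B and 0.027 for NDUFA4, and with voom quality weights 0.024 for COX7B. The block gave 0.0076 for COX7B, −0.016 for SDHD and 0.0030 for UQCRC1, DESeq2 size factors gave −0.0031 for UQCRC2, and the DESeq2 Wald test −0.0077 for SDHD and −0.022 for UQCRC2. With 1 library left out the values spanned −0.086 to 0.100 for COX6B1, −0.040 to 0.016 for COX7B, −0.034 to 0.0093 for NDUFA4, −0.035 to 0.039 for SDHB, −0.025 to 0.035 for SDHD and −0.054 to 0.029 for UQCRC2. The causes were not tested. Depth limits the lowest members: 6 tested members had under 500 counts over the 6 libraries. Levels per kilobase by merged exons and by median transcript had a rank correlation of 0.748 over 90 genes, so levels of different genes depend on the length used.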

Other observations

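Leukocyte markers summed to 2.11 to 3.22 CPM under panobinostat and 0.43 to 0.85 CPM in DMSO, with CD14 called higher and PTPRC at 0 in panobinostat replicates 1 and 4 and in all 3 DMSO libraries. Endothelial markers summed to 4.41 to 7.68 CPM under panobinostat and 6.83 to 8.30 CPM in DMSO. Fibroblast markers summed to 55.5 to 90.4 CPM under panobinostat and 17.0 to 19.2 CPM in DMSO, nearly all of it COL1A1, while LUM was at 0 in the 3 panobinostat libraries. Their part in the changes of the oxidative phosphorylation genes was not tested.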
